A study of Mus musculus with 12 samples.

Results

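A set of 7 genes whose protein products are best known from synapses, vesicle release, ion channels or calcium binding is described here: Slitrk1, Cbln2, Insyn2b, Cadps2, Kcnab1, Calb2 and Pdzrn4. They are 7 of the 18193 genes read on the arrays and were picked because their levels were lower in limbs lacking Lmx1b than in wild-type limbs at 1 or more stages. Their differences between the genotypes are therefore given as a description, without a test. The group was read by 8 probe sets, since Kcnab1 had 2 and each of the others had 1.

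Total RNA from limbs of C57BL/6 mouse embryos was hybridised to 1-colour Affymetrix arrays, comparing wild-type embryos (WT, Lmx1b +/+) with knockouts (KO, Lmx1b -/-) at 11.5, 12.5 and 13.5 days post coitum (dpc). There were 12 arrays, 2 for each genotype at each stage. Limb buds with their girdle were taken at 11.5 and 12.5 dpc, and at 13.5 dpc the distal limb, which the labels call handplate. Each array read a pool of limbs, with different embryos for both replicates of a group: 6 limbs per pool by the extraction protocol, or 3 at 12.5 dpc by the series text. All groups carry the same strain label, and how the allele was made is not stated in the labels. Values are log2 units, so that a difference of 1 is a doubling. Levels are compared for a probe set across arrays and never between probe sets.

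Lmx1b encodes the LIM homeodomain factor that gives the mesenchyme of the limb bud its dorsal identity. Nerve cell bodies lie outside the limb, in the spinal cord and the dorsal root ganglia, and only their axons and the accompanying Schwann cells enter it. Transcripts of genes named for synapses can also be made by mesenchyme and other cells. In RNA from whole limbs, fewer cells of a type and less RNA per cell cannot be told apart.

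Promoters are shown because the group read lower in KO limbs, to set the letters before each start site beside the values that follow. Where a gene has several windows, the one with the most matches is printed. RefSeq's GRCm38.p6 promoter table, which spans 250 bases before to 50 after a start site, held 7 entries for 4 of the 7 genes. The capitals mark TAAT on either strand (read as ATTA on the other), the core of many homeodomain binding sites. For Slitrk1 the window is chr14:108914190-108914489 on the minus strand, for Cadps2 chr6:23839372-23839671 on the minus strand, for Kcnab1, which has 3 start sites listed, the window at chr3:64948962-64949261 on the plus strand, and for Pdzrn4, which has 2, the window at chr15:92596859-92597158 on the plus strand.
Slitrk1: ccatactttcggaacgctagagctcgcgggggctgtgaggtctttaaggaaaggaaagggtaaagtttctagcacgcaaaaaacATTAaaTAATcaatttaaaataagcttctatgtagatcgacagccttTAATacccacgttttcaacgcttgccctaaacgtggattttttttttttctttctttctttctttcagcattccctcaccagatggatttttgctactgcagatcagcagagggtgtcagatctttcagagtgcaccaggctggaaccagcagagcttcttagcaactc
Cadps2: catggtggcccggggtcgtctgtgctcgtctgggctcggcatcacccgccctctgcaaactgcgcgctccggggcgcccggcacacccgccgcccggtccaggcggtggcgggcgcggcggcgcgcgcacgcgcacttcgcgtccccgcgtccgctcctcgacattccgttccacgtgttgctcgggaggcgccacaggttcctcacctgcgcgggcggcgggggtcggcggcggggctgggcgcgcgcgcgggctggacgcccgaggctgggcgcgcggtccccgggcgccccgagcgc
Kcnab1: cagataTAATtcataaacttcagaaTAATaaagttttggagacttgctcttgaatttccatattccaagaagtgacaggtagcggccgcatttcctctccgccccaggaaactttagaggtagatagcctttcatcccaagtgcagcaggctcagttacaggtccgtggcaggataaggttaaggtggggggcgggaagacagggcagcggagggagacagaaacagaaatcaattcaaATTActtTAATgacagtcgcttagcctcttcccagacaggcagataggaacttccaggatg
Pdzrn4: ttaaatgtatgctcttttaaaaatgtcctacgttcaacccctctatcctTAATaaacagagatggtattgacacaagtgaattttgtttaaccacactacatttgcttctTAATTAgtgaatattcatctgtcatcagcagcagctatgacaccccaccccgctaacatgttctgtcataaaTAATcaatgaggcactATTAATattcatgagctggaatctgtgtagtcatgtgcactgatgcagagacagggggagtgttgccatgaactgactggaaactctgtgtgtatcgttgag
The Slitrk1 window held 3 matches to TAAT, the Kcnab1 window 4, the Pdzrn4 window 6 and the Cadps2 window 0. TAAT was present in 58.03% of all 32851 windows listed, with a median of 1 match. The longer palindrome TAATTA, which overlaps TAAT on both strands, was found in 1 of the 7 windows, that of Pdzrn4, 140 bases before the start site, and in 5.291% of all windows. The other Kcnab1 windows held 2 and 3 matches to TAAT and the other Pdzrn4 window 2. The windows also differed in composition, from 36.67% G and C in another Kcnab1 window to 79.67% in that of Cadps2, which has 54 CpG dinucleotides against a median of 7. These matches describe letters only, and binding was not measured. The 7 genes lie on 7 different chromosomes.

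The arrays were checked on Lmx1b before the group was examined. Lmx1b lay between 9.28 and 10.27 on the 6 WT arrays and between 5.60 and 8.88 on the 6 KO arrays, without overlap. Where its probe set lies relative to the part of the gene altered in the knockout is not known here, so this checks only that the labelled groups differ. KO 13.5 dpc replicate 2 gave the value of 8.88, above the 7.48 of its replicate. That array also held the embryonic globin Hbb-bh1 at 12.91, against 10.48 in its replicate and 9.05 and 8.40 in WT. The KO 12.5 dpc replicates were the farthest apart of all pairs, with a root mean square difference of 0.356 over genes against 0.140 to 0.267 for the other 5 pairs. In replicate 2 of that pair all 7 genes lay below replicate 1, as did 52.6% of all genes. In WT 11.5 dpc replicate 2, 0 of the 7 genes lay below replicate 1, against 47.6% of all genes. Their median there was 0.36 above that of replicate 1, gene by gene. For the 7 genes, values without WT 11.5 dpc replicate 2, KO 12.5 dpc replicate 2 and KO 13.5 dpc replicate 2 are therefore given with the results of their stages.

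Taken over the 3 stages, the KO minus WT difference was below 0 for all 7 genes, with a median of -0.86 and a range from -1.47 for Slitrk1 to -0.09 for Calb2. Over all genes 58.6% were below 0 and the median was -0.02. At 11.5 dpc both KO arrays lay below both WT arrays for 7 of the 7 genes, a pattern found in 26.8% of all genes. The count was also 7 of 7 at 12.5 dpc, against 19.3% of all genes. At 13.5 dpc it was 5 of 7, against 22.3%, because Calb2 lay higher in KO without overlap, as did 11.6% of all genes, and the Pdzrn4 arrays overlapped. Slitrk1, Cbln2, Insyn2b, Cadps2 and Kcnab1 were thus lower without overlap at all 3 stages, as were 1.31% of all genes. Since the genes were picked for this direction, nothing is read from these shares. Without both KO arrays that stood apart the differences over the stages ran from -1.24 to -0.10. The name of the group, which calls the genes lost, restates the lower KO levels by which they were picked. It goes against the data for Calb2 at 13.5 dpc. At 11.5 dpc the standard error (SE) was large beside the difference for Slitrk1 (-0.64, SE 0.36), Cbln2 (-0.54, SE 0.26) and Kcnab1 (-0.31, SE 0.20).

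**Figure D1:**
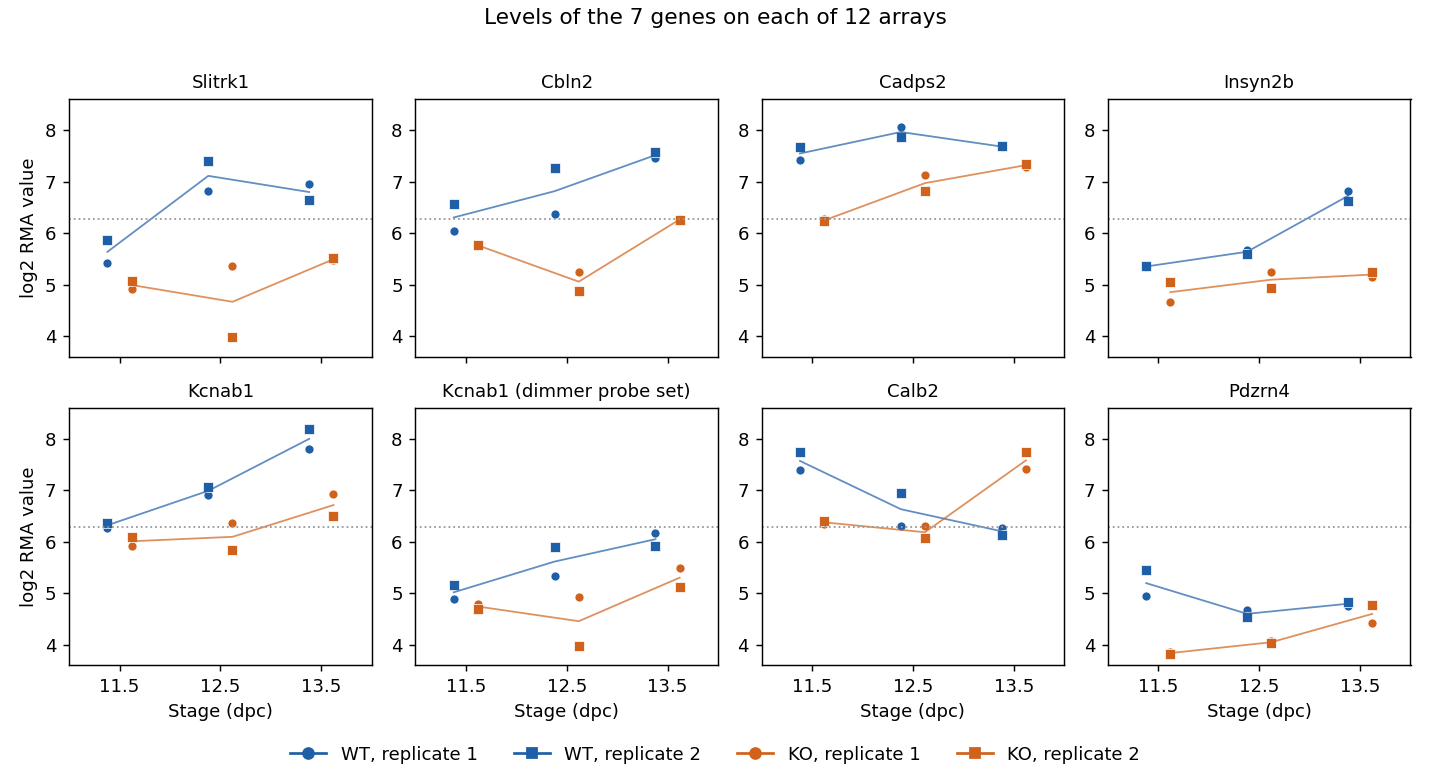
Log2 RMA values of the 8 probe sets (y axis) against stage in dpc (x axis), with WT in blue and KO in orange, replicate 1 as circles, replicate 2 as squares and lines through the group means; the dotted line is the median of all values (6.28). The WT line lies above the KO line at each stage for every gene but Calb2, whose KO arrays at 13.5 dpc (7.41 and 7.74) lie above WT (6.27 and 6.13).

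Among the adhesion proteins of the synapse, Slitrk1 encodes a transmembrane protein with leucine-rich repeats that binds receptor phosphatases across the synaptic cleft. Its WT arrays read 5.41 and 5.86 at 11.5 dpc, 6.82 and 7.41 at 12.5 dpc and 6.95 and 6.64 at 13.5 dpc. In KO they read 4.91 and 5.08, then 5.35 and 3.98, then 5.47 and 5.51. Slitrk1 was thus higher at 12.5 than at 11.5 dpc in WT, while no KO array passed the 5.86 of the higher WT array at 11.5 dpc. KO minus WT was -0.64 ± 0.36 (SE, n = 2 arrays per group) at 11.5 dpc, -2.45 ± 0.36 at 12.5 dpc and -1.31 ± 0.36 at 13.5 dpc. The value at 12.5 dpc was 5.45-fold on the linear scale, and it was -1.76 without KO 12.5 dpc replicate 2, whose 3.98 was the lowest reading of this probe set. At 11.5 dpc it was -0.42 without WT replicate 2, and at 13.5 dpc it was -1.33 without KO replicate 2. In the order of the 6 groups WT 12.5 and 13.5 dpc came first and overlapped each other, and KO 11.5 and 12.5 dpc came last and also overlapped.

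Cbln2 encodes a secreted cerebellin, which links neurexins on the axon to glutamate receptors of the delta type on the other side. In WT its values were 6.03 and 6.57 at 11.5 dpc, 6.37 and 7.26 at 12.5 dpc and 7.45 and 7.58 at 13.5 dpc. The KO arrays gave 5.76 and 5.77, then 5.24 and 4.88, then 6.27 and 6.26. The KO arrays were thus lowest at the middle stage, where the WT replicates were also farthest apart. The differences were -0.54 ± 0.26 at 11.5 dpc, -1.76 ± 0.26 at 12.5 dpc and -1.25 ± 0.26 at 13.5 dpc. Leaving out single arrays moved the value at 11.5 dpc between -0.81 and -0.27, the latter without WT replicate 2, and that at 12.5 dpc between -2.20 and -1.32, the latter again without WT replicate 2. Without KO replicate 2 the value was -1.58 at 12.5 dpc and -1.25 at 13.5 dpc. WT 13.5 dpc stood first among the groups and did not overlap the next, WT 12.5 dpc, which itself overlapped WT 11.5 dpc.

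Insyn2b belongs to a small family named as inhibitory synaptic factors. It read 5.34 and 5.37 in WT and 4.66 and 5.05 in KO at 11.5 dpc, and 5.68 and 5.60 against 5.25 and 4.94 at 12.5 dpc. At 13.5 dpc the WT arrays reached 6.82 and 6.62, the only arrays above the median of all values, while KO stayed at 5.14 and 5.25. In the order of levels the 3 WT groups came first without overlapping, and neighbouring KO groups overlapped. KO minus WT was -0.50 ± 0.14 and -0.54 ± 0.14 at the earlier stages and -1.53 ± 0.14 at 13.5 dpc, or 2.88-fold. The value at 11.5 dpc was -0.30 without KO replicate 1, -0.70 without KO replicate 2 and -0.48 without WT replicate 2. Without KO replicate 2 of the later stages it was -0.39 at 12.5 dpc and -1.58 at 13.5 dpc.

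Cadps2, which encodes a priming factor for the release of dense-core vesicles, had the opposite course. Its WT arrays read 7.41 and 7.68 at 11.5 dpc, 8.06 and 7.87 at 12.5 dpc and 7.67 and 7.69 at 13.5 dpc. KO values were 6.27 and 6.23, then 7.12 and 6.82, then 7.29 and 7.35. The KO groups thus followed each other upward without overlap, while WT was highest at 12.5 dpc and its other stages overlapped. The differences were -1.30 ± 0.13 at 11.5 dpc, -0.99 ± 0.13 at 12.5 dpc and -0.36 ± 0.13 at 13.5 dpc, in folds 2.46, 1.99 and 1.28. Without KO replicate 2 the later values were -0.84 and -0.39, and without WT replicate 2 the value at 11.5 dpc was -1.16.

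Kcnab1 encodes a cytoplasmic beta subunit of voltage-gated potassium channels of the Kv1 family. On the brighter probe set, 1448468_a_at, WT read 6.27 and 6.37 at 11.5 dpc, 6.91 and 7.06 at 12.5 dpc and 7.80 and 8.19 at 13.5 dpc. KO read 5.92 and 6.10, then 6.36 and 5.83, then 6.92 and 6.50. Both genotypes were highest at 13.5 dpc, and the gap between them was widest there. KO minus WT was -0.31 ± 0.20, -0.89 ± 0.20 and -1.29 ± 0.20 at the successive stages. Without KO replicate 2 the value was -0.63 at 12.5 dpc and -1.07 at 13.5 dpc, and without WT replicate 2 it was -0.26 at 11.5 dpc. The dimmer probe set, 1454043_a_at, did not pass the median of all values on any array and gave -0.28 ± 0.28, -1.16 ± 0.28 and -0.75 ± 0.28, so that the signs were the same. Its largest gap fell at 12.5 dpc, but without KO 12.5 dpc replicate 2 the value there was -0.68, smaller than that at 13.5 dpc.

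Calb2, which encodes the EF-hand calcium-binding protein calretinin, changed places between the genotypes. At 11.5 dpc the WT arrays lay at 7.39 and 7.75 and the KO arrays at 6.35 and 6.40. At 12.5 dpc WT lay at 6.31 and 6.95 and KO at 6.30 and 6.06, almost without a gap between the nearest arrays. At 13.5 dpc WT lay at 6.27 and 6.13, below KO at 7.41 and 7.74. KO 13.5 dpc and WT 11.5 dpc were the highest groups and overlapped each other. The differences were -1.19 ± 0.20, -0.45 ± 0.20 and 1.38 ± 0.20. The value at 11.5 dpc was -1.01 without WT replicate 2, and that at 13.5 dpc was 1.21 without KO replicate 2. That at 12.5 dpc was -0.33 without KO replicate 2 and -0.13 without WT replicate 2. At 13.5 dpc some genes of the proximal limb also read higher in the KO arrays. Meis1 lay at 7.76 and 9.46 in KO against 7.12 and 7.01 in WT. Shox2 lay at 10.16 and 11.66 against 9.61 and 9.35. It was found by its likeness to Calb2, so its shared direction is in part built in. Of 7 markers of limb identity and the proximal limb 5 were above 0 at 13.5 dpc and 2 below, where 52.6% of all genes were below 0. The 7 markers had a mean of 8.54 and 9.38 in KO against 8.58 and 8.68 in WT. Emx2, of the same list, read lower in KO, with a group mean of 7.70 against 8.86 in WT. All 5 erythroid markers were above 0 and had a mean of 10.20 and 11.25 in KO against 9.91 and 9.72 in WT. Their part in the Calb2 value was not tested.

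Pdzrn4 encodes a protein with PDZ and RING finger domains, related to the ubiquitin ligase Pdzrn3. Its probe set was below the median of all values on all 12 arrays, and dim values compress differences. WT read 4.95 and 5.44 at 11.5 dpc, 4.67 and 4.53 at 12.5 dpc and 4.75 and 4.84 at 13.5 dpc. KO read 3.86 and 3.82, then 4.07 and 4.02, then 4.42 and 4.77. WT was highest at the first stage and KO at the last, where the arrays overlapped. KO minus WT was -1.36 ± 0.16, -0.55 ± 0.16 and -0.20 ± 0.16. The value at 13.5 dpc rested on single arrays, at -0.02 without KO replicate 1 and -0.37 without KO replicate 2. That at 12.5 dpc was -0.53 without KO replicate 2, and that at 11.5 dpc was -1.11 without WT replicate 2.

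**Figure D2:**
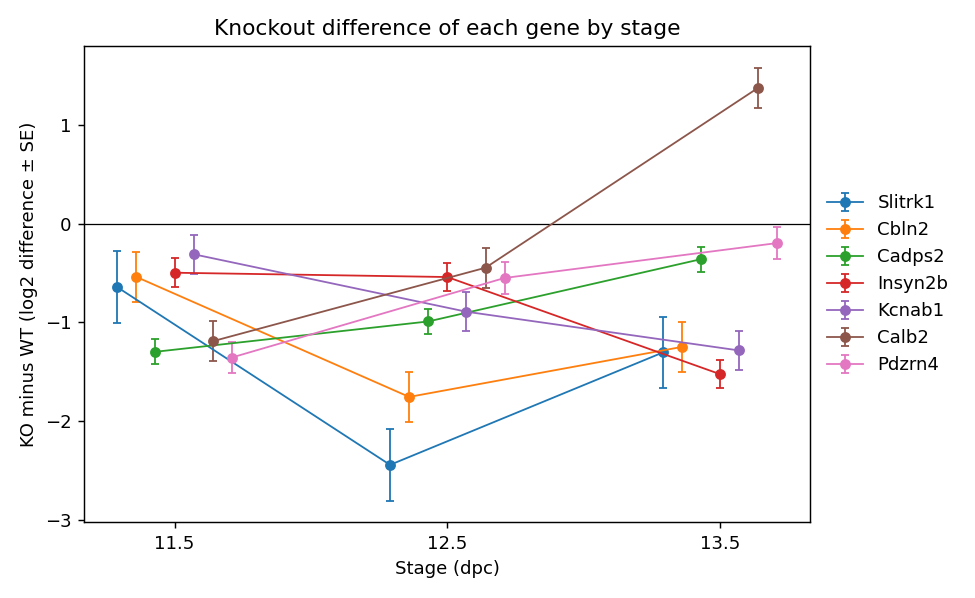
KO minus WT in log2 units (y axis, points with SE from the fit over all genes, n = 2 arrays per group) against stage in dpc (x axis), a line for each gene. Cadps2 goes from -1.30 to -0.36 and Pdzrn4 from -1.36 to -0.20, Insyn2b and Kcnab1 reach -1.53 and -1.29 at 13.5 dpc, Slitrk1 and Cbln2 are lowest at 12.5 dpc, and Calb2 ends at 1.38.

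By the stage of the widest gap, 6 of the 7 genes are grouped here into 3 courses. Calb2, which crossed from below to above WT, is in none of them. The grouping describes point values, and differences between the stages were not tested. Without WT 12.5 dpc replicate 2, for instance, Cbln2 was -1.32 at 12.5 dpc, near its -1.25 at 13.5 dpc. The gap was widest at 11.5 dpc for Cadps2 and Pdzrn4, at 12.5 dpc for Slitrk1 and Cbln2, and at 13.5 dpc for Insyn2b and, on its brighter probe set, Kcnab1. Pairs with the same course were the most alike across arrays once each stage mean was subtracted. Pearson's r over the 12 arrays was then 0.95 for Slitrk1 and Cbln2, 0.94 for Cadps2 and Pdzrn4 and 0.90 for Insyn2b and Kcnab1. Pairs of different courses came close to the last, with 0.89 for Cbln2 and Kcnab1 and 0.85 for Slitrk1 and Kcnab1. The courses and these coefficients rest on the same differences between genotypes, so their likeness is in part built in. Between Calb2 and the others r ran from -0.35 with Insyn2b to 0.56 with Pdzrn4. These coefficients describe arrays that share genotypes and stages, and carry no test because the genes were chosen by genotype.

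The change between stages, averaged over both genotypes, is a different contrast from KO minus WT and was tested. It is independent of the choice of genes only if KO and WT arrays vary alike, which they did not at 12.5 and 13.5 dpc. The root mean square difference between replicates was 0.356 in KO and 0.237 in WT at 12.5 dpc, and 0.267 and 0.148 at 13.5 dpc. KO 12.5 dpc replicate 2, low for all 7 genes, also lowers the mean at 12.5 dpc. The choice of genes can therefore carry over into the p-values, which are read with that limit. Values without KO 12.5 dpc replicate 2 are given. The changes within WT or KO alone bear on the choice and are given as values only. The p-values measure the spread between these pools of limbs. Stage cannot be told apart from the scan series, nor, at 13.5 dpc, from the dissected part. The hindlimb genes Pitx1 and Tbx4 also read higher at 13.5 than at 12.5 dpc, and the forelimb gene Tbx5 read lower. Pitx1 went from a mean of 5.93 to 10.11 in WT and from 5.78 to 10.09 in KO. Tbx4 went from 7.98 to 10.06 in WT and from 8.03 to 10.08 in KO. Tbx5 went from 11.03 to 9.53 in WT and from 11.14 to 9.78 in KO. Whether the pools of that stage differed in limb type was not tested, and it cannot be told apart from stage. From 11.5 to 12.5 dpc 1 of the 7 genes rose and 1 fell, against 12.3% and 21% of all genes. Cadps2 rose by 0.57 (SE 0.09, limma adjusted p = 0.00105), in both WT (0.42) and KO (0.72). Calb2 fell by 0.56 (SE 0.14, adjusted p = 0.0131), with -0.94 in WT and -0.19 in KO, and without WT 11.5 dpc replicate 2 it did not pass (adjusted p = 0.0572). Slitrk1 (0.57 ± 0.26, adjusted p = 0.111) did not pass, and its mean joins 1.48 in WT with -0.33 in KO. Cbln2 likewise had 0.51 in WT and -0.71 in KO, Kcnab1 0.67 and 0.09, and Pdzrn4 -0.60 and 0.21. Without KO 12.5 dpc replicate 2 Slitrk1 passed at 0.92 (adjusted p = 0.00184), as did Kcnab1 at 0.51 (adjusted p = 0.0118) and Insyn2b at 0.34 (adjusted p = 0.0264). Insyn2b also passed without KO 11.5 dpc replicate 2 (0.36, adjusted p = 0.0279), and Pdzrn4 without WT 11.5 dpc replicate 1 (-0.32, adjusted p = 0.041).

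From 12.5 to 13.5 dpc 5 of the 7 genes rose, against 21.4% of all genes, and 0 fell, against 17.1%. The limit above applies to these counts. Without both KO arrays that stood apart the change was 0.34 for Calb2 and 0.27 for Pdzrn4. Cbln2 rose by 0.95 (SE 0.18, limma adjusted p = 0.00255), Kcnab1 by 0.81 (SE 0.14, adjusted p = 0.00146) and Insyn2b by 0.59 (SE 0.10, adjusted p = 0.00153). Without KO 12.5 dpc replicate 2 these were 0.86 (adjusted p = 0.00713), 0.68 (adjusted p = 0.00273) and 0.51 (adjusted p = 0.00367). The Insyn2b value was the mean of 1.08 in WT and 0.10 in KO. Calb2 (0.48 ± 0.14, adjusted p = 0.0232) averaged opposite values, -0.43 in WT and 1.40 in KO. Pdzrn4 (0.37 ± 0.11, adjusted p = 0.0244) had 0.20 in WT and 0.55 in KO. The Calb2 call ended without KO 12.5 or 13.5 dpc replicate 2 or without WT 12.5 or 13.5 dpc replicate 1 (adjusted p from 0.0582 to 0.0782). That of Pdzrn4 ended without KO 13.5 dpc replicate 2, WT 12.5 dpc replicate 2 or either WT 13.5 dpc array (adjusted p from 0.0518 to 0.078). Cadps2 (0.03 ± 0.09, adjusted p = 0.796) and Slitrk1 (0.26 ± 0.26, adjusted p = 0.457) did not pass. Without KO 12.5 dpc replicate 1 Slitrk1 passed, at 0.60 (adjusted p = 0.0134), and without replicate 2 it was -0.09 (adjusted p = 0.687).

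The close relatives and working partners of the 7 proteins were read to see whether they moved too. Of 65 such genes in 7 lists, 1 passed as lower in KO over the stages and 0 as higher, against 0.187% and 0.0165% of all genes, and 43 were below 0. Their median was -0.04. At the single stages 0 of the 65 passed by limma in either direction, against 0.0165%, 0.0385% and 0.0275% of all genes, and 2, 5 and 8 had an unadjusted p under 0.05, against 1.64%, 10.9% and 5.9%.

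Slitrk5 was the gene that passed. It stands in the list of the SLITRK family and its receptor phosphatases, where 6 of 8 other genes were below 0 and the median was -0.07. Slitrk5 read 7.05 and 7.24 in WT and 6.64 and 6.73 in KO at 11.5 dpc, 6.55 and 6.40 against 6.33 and 5.95 at 12.5 dpc, and 7.62 and 7.60 against 6.96 and 7.04 at 13.5 dpc. The KO arrays thus lay below WT at each stage, and the fall over the stages was -0.47 ± 0.07 (limma adjusted p = 0.0408). The call ended without any single array other than the KO 12.5 dpc pair (adjusted p from 0.0762 to 0.199). It also ended without both KO arrays that stood apart (-0.42, adjusted p = 0.0601) and when every probe set was tested (adjusted p = 0.0739). In the RefSeq gene order of chromosome 14, Slitrk1, Slitrk6 and Slitrk5 are consecutive protein-coding genes. Slitrk6, picked out for its place between the others after its values were seen, did not pass (-0.09 ± 0.10, adjusted p = 0.939). Its KO minus WT was -0.07 at 11.5 dpc, -0.61 at 12.5 dpc and 0.42 at 13.5 dpc. Receptor phosphatase Ptprd lay at -0.15 (adjusted p = 0.854) and Slitrk3 at -0.09 (adjusted p = 0.867).

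**Figure D3:**
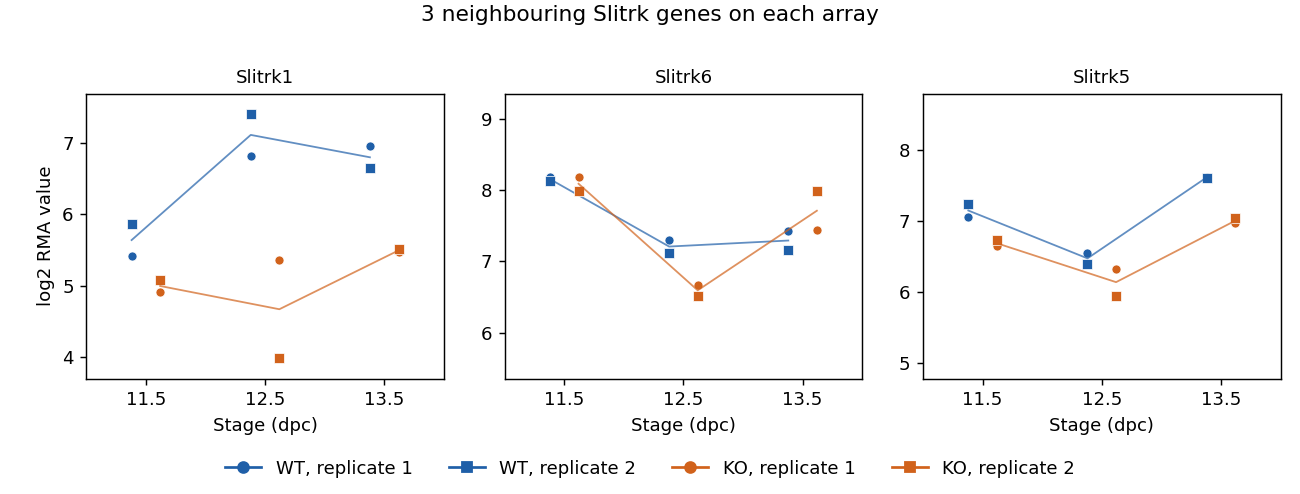
Log2 RMA values (y axis, 4 log2 units in each panel) of Slitrk1, Slitrk6 and Slitrk5 against stage in dpc (x axis), WT in blue and KO in orange, replicate 1 as circles and replicate 2 as squares, lines through group means. Slitrk1 and Slitrk5 lie lower in KO at each stage, and Slitrk6 lies lower without overlap only at 12.5 dpc (6.67 and 6.52 against 7.30 and 7.12). At 13.5 dpc the Slitrk6 mean is higher in KO (7.71 against 7.29).

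The other partner lists held 0 genes that passed by limma over the stages, and 6 with an unadjusted p under 0.05, against 6.87% of all genes. Of 6 cerebellins and partners 4 were below 0 with a median of -0.04, among them Nrxn2, a neurexin (-0.10), and Grid1, a delta receptor (-0.05). Cbln1, the relative of Cbln2, lay at 0.49 ± 0.19 (adjusted p = 0.645). Of 15 exocytosis genes 10 were below 0, with a median of -0.04. Vamp2, a vesicle SNARE, lay at -0.12, Chgb, a granin stored in dense-core vesicles, at -0.15 and Syt1, a calcium sensor of release, at -0.22. Cadps, the sister gene of Cadps2, lay at -0.20 (adjusted p = 0.896). Of 15 inhibitory synapse genes 12 were below 0, with a median of -0.04, and the relative Insyn2a lay at -0.12 (adjusted p = 0.781). Gabrb1, a receptor subunit for GABA, lay at -0.20 and Gad2, an enzyme of GABA synthesis, at -0.18.

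Of 8 Kv1 channel subunits 4 were below 0, with a median of -0.00067. The other beta subunits Kcnab2 (-0.19, adjusted p = 0.794) and Kcnab3 (0.11, adjusted p = 0.768) did not pass, and Kcna6 lay at -0.10. Of 10 neuronal EF-hand genes 6 were below 0, with a median of -0.03. Calb1, calbindin, had the lowest value of the list, at -0.94 ± 0.26 (adjusted p = 0.423), with -1.64 at 11.5 dpc. Its arrays at 11.5 dpc read 6.21 and 7.06 in WT and 5.28 and 4.71 in KO. Rcvrn (-0.10) and Necab2 (0.17) did not pass. The 3 relatives of Pdzrn4 lay at -0.04 (Pdzrn3), 0.01 (Lnx2) and 0.06 (Lnx1).

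**Figure D4:**
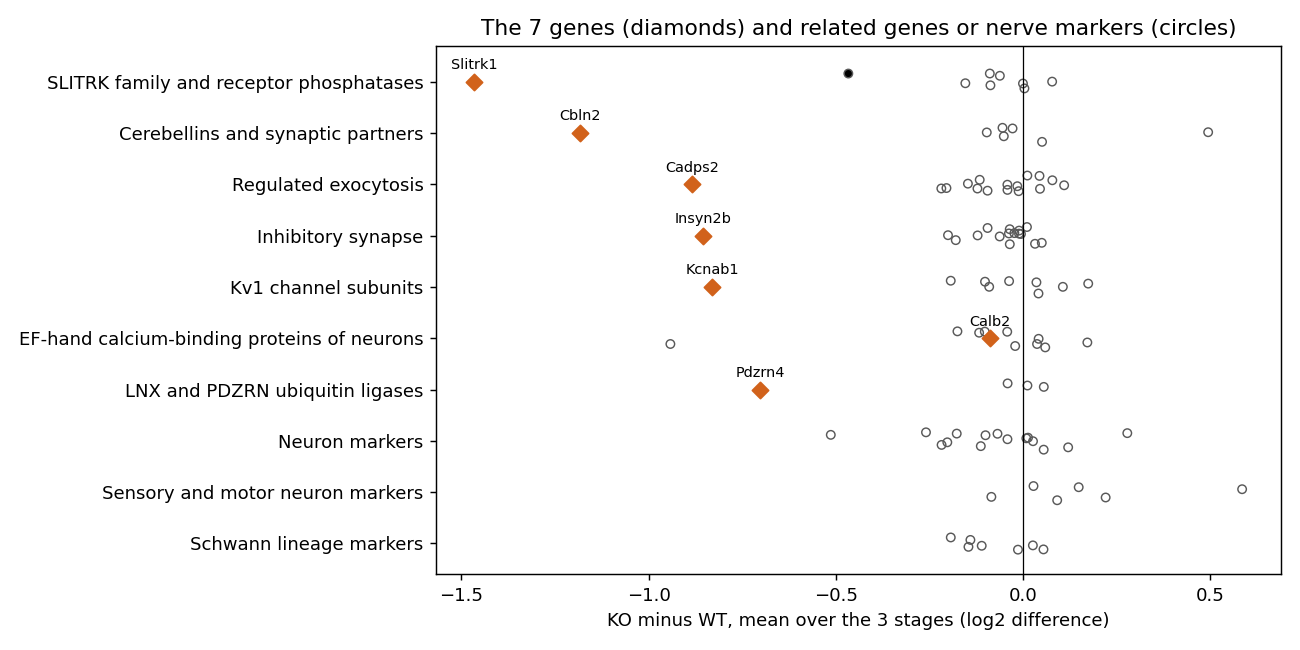
KO minus WT over the 3 stages in log2 units (x axis) for the 7 genes (orange diamonds) and for the other genes of each list, nerve marker lists included (circles, filled where limma's adjusted p was under 0.05; the vertical scatter has no meaning). Slitrk5, at -0.47, is the filled circle, and the diamonds other than Calb2 lie between -1.47 and -0.70.

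Markers of nerve tissue were set beside the group. Among 15 neuron markers, 6 to 10 lay above the median of all values on an array, and 0 passed by limma in KO minus WT over the stages or at a stage. An unadjusted p under 0.05 was reached by 2 of them over the stages, against 6.87% of all genes. Their median difference over the stages was -0.07, with 9 below 0. The mean level of the list ran from 6.60 to 6.76 in WT and 6.51 to 6.54 in KO at 11.5 dpc, from 6.44 to 6.62 and 6.40 to 6.44 at 12.5 dpc, and from 6.50 to 6.52 and 6.51 to 6.57 at 13.5 dpc. KO arrays thus lay below WT at 11.5 and 12.5 dpc, by little at the second, and overlapped at 13.5 dpc. Dcx, a microtubule protein of young neurons, had the lowest difference (-0.51 ± 0.14, adjusted p = 0.423). The neurofilament gene Nefm lay at -0.26 and Tubb3, a neuronal tubulin, at -0.22. Of 7 sensory and motor neuron markers 6 were measured, and at most 1 of them lay above the median of all values on any array. Pou4f1, which defines sensory neurons, stayed between 3.91 and 4.24, and Chat, the enzyme of cholinergic neurons, between 4.38 and 4.94. Isl1, which limb mesenchyme also uses, lay at 0.59 ± 0.18 (adjusted p = 0.472) and Mnx1 at 0.22.

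Of 9 Schwann lineage markers 7 were measured, 5 were below 0 over the stages with a median of -0.11, and 0 passed by limma or had an unadjusted p under 0.05. The list mean was 7.06 to 7.13 in WT and 7.09 to 7.10 in KO at 11.5 dpc, 6.83 to 6.86 and 6.49 to 6.94 at 12.5 dpc, and 6.91 to 6.97 and 6.79 to 6.90 at 13.5 dpc. KO 12.5 dpc replicate 2 was the lowest array. Its Sox10, a defining factor of the lineage, read 6.56 against 7.34 in its replicate and 7.30 and 7.32 in WT. Cartilage markers had larger differences than nerve markers. All 9 were below 0 in KO over the stages with a median of -0.67, and 0 passed by limma, though 7 had an unadjusted p under 0.05. Of all genes 58.6% were below 0 and 6.87% had such a p. Their mean level was 8.68 to 9.00 in WT and 8.22 to 8.50 in KO at 11.5 dpc, 9.79 to 9.88 and 8.59 to 9.64 at 12.5 dpc, and 10.29 to 10.30 and 9.22 to 9.75 at 13.5 dpc. Of 10 skeletal muscle markers 4 were below 0, with a median of 0.04, 0 passed by limma and 1 had an unadjusted p under 0.05. That average joined opposite values, since all 10 were below 0 at 12.5 dpc (median -0.29) and 3 of 10 at 13.5 dpc (median 0.40), where 4 had an unadjusted p under 0.05. The lower value at 12.5 dpc rested on KO replicate 2, with a list mean of 8.57. KO replicate 1 had 9.57, above the 9.30 and 9.44 of WT. At 13.5 dpc the list mean was 8.27 and 8.75 in KO against 8.15 and 8.08 in WT. The part of neuron, Schwann or cartilage content in the values of the 7 genes was not tested.

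**Figure D5:**
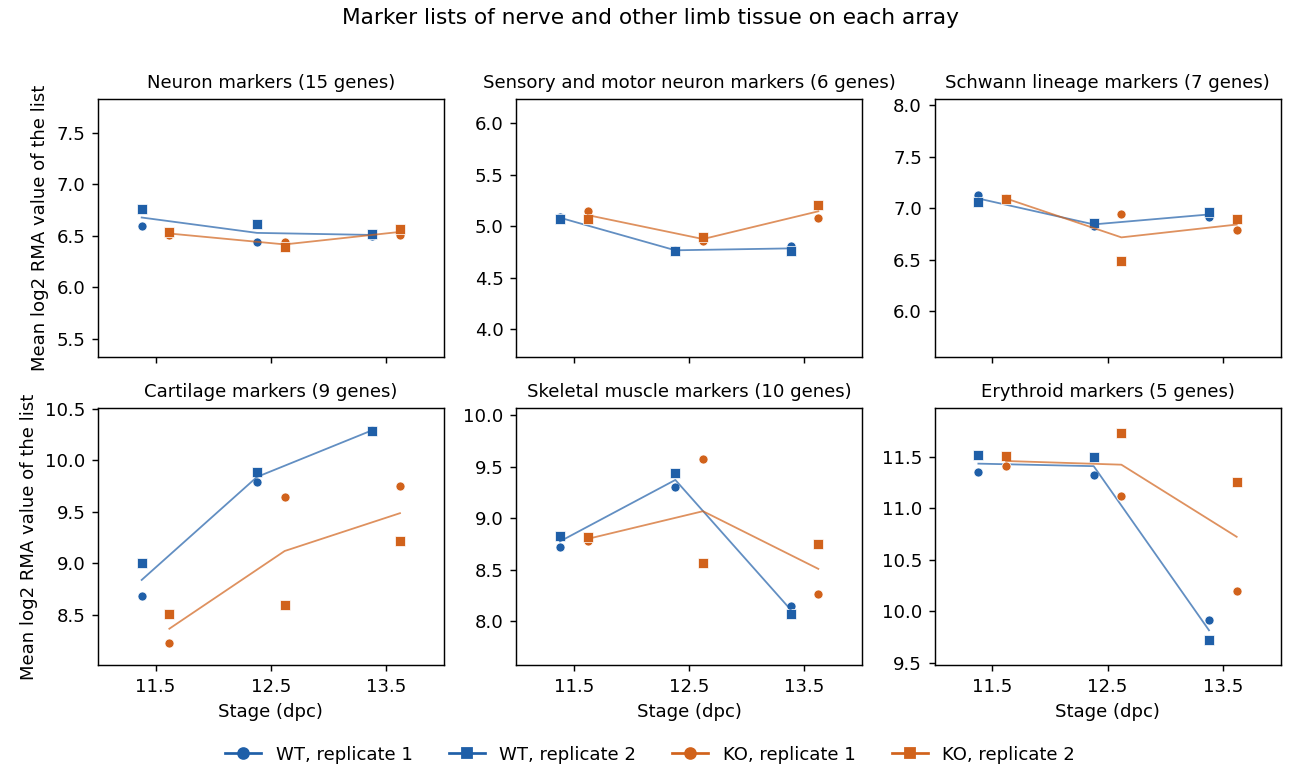
Mean log2 RMA value of 6 marker lists (y axis, 2.5 log2 units in each panel) on every array against stage in dpc (x axis), WT in blue and KO in orange, replicate 1 as circles and replicate 2 as squares, lines through group means. The neuron list stays between 6.40 and 6.76, while cartilage markers lie lower in KO at each stage.

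The genes most alike in pattern were sought among all genes with a mean above the median of all values. Over the 12 arrays these were the proteoglycan gene Lum (r = 0.94) and Ern1 (0.93) for Slitrk1, Drp2 (0.96) and Tmeff2 (0.95) for Cbln2, and Lrig2 (0.93) and Slc26a2 (0.93) for Insyn2b. Dystrophin, encoded by Dmd (0.92), and Lmx1b itself (0.90) came closest to Cadps2, and Ptger4 (0.87) and Lmx1b (0.87) to Pdzrn4. For Kcnab1 they were Clec14a (0.96) and Tmtc2 (0.96), and for Calb2 Pmpcb (0.85) and Crip1 (0.85). After each stage mean was subtracted, Tmeff2 (0.97) stayed closest to Cbln2 and Cadps2 (0.94) came closest to Pdzrn4. Hoxb3 (0.90) and the proximal limb gene Shox2 (0.84) came closest to Calb2. The others were Lrrc17 and Dok1 (0.97 each) for Slitrk1, Tmem176a (0.96) for Cbln2, Zcchc17 (0.95) and Dmd (0.95) for Cadps2, Dab1 and Shisa2 (0.96 each) for Insyn2b, Snx2 (0.98) and Tmtc2 (0.96) for Kcnab1, and Gorasp1 (0.93) for Pdzrn4. These are the highest coefficients among 11549 genes, over 12 arrays that share 6 groups, and carry no test.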

How the data were processed

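The deposited table holds the authors' log2 values, 1 column per array, normalised by RMA per the submitters' processing notes (version not given in the sources used here). Sorted columns differed by at most 0.24 at any rank. Of 45101 probe sets, 34945 name 1 gene, 932 several and 9160 none here. Each of 18193 genes was read by its brightest probe set on average. A linear model over 6 groups was fitted to all genes with limma 3.58.1 in R 4.3.3 (lmFit, eBayes, 6 residual degrees of freedom), and p-values were adjusted by Benjamini-Hochberg over all genes, with a threshold of 0.05. The code was tested on simulated data. With 2 arrays per group, the number of arrays limits the precision.

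The 7 genes and 16 gene lists were chosen with earlier results of these data known. Named from each list were up to 3 genes, those past the threshold first and then by smallest p over the stages, and for each of the 7 genes the 2 most alike by Pearson's r among genes with a mean above the median of all values. Slitrk6, Cadps, Pou4f1, Chat, Pitx1, Tbx4 and Tbx5 were named outside that rule after their values were seen. Same-numbered KO and WT arrays did not deviate together (r of 0.19, -0.12 and -0.09 at the 3 stages). Alternatives were other probe set rules, every probe set tested, dim genes left out, other variance models, array weights, renormalisation, a replicate block, fewer groups, and arrays left out.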

Additional observations from a re-analysis of the deposited data

Results flagged for a closer look

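Some genes had KO arrays all below WT at a stage and all above it at another, as did 13.9% of all genes; the differences between stages were not tested. For Calb2 KO minus WT was higher at 13.5 dpc than at 11.5 dpc by 2.57 (log2) and than at 12.5 dpc by 1.82. For Isl1, a LIM homeodomain gene of motor neurons and hindlimb mesenchyme, it was higher by 0.92 at 12.5 dpc and by 1.80 at 13.5 dpc than at 11.5 dpc. The KO arrays of Isl1 at 13.5 dpc were far apart, with a mean of 6.81 and a standard deviation of 0.87. For Vamp2, the vesicle SNARE, the value at 13.5 dpc less that at 12.5 dpc was -0.49. Wnt7a, the dorsal ectoderm signal, gave 0.49 for the same stages. Krt8, a keratin of simple epithelia, gave 0.73 for 13.5 dpc less 11.5 dpc, and En1, a ventral ectoderm factor, gave -0.56. The standard deviation of Krt8 over the KO arrays at 13.5 dpc was 0.51.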

How the results depend on the processing

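The 7 genes kept their direction in KO minus WT in all but 1 of 569 alternatives, and 548 moved by less than the replicate spread. Many of these alternatives could not change the value of a stage, such as leaving out an array of another stage or changing the variance model. The genes were also picked for a lower level in KO at 1 or more stages, so nothing is read from these counts. Calb2 over the stages, at -0.09, ran from -0.195 to 0.0189 without single arrays, and was above 0 without WT 12.5 dpc replicate 2. Of 316 alternatives for their stage changes, 279 kept direction and call, 19 lost a call, 17 gained one and 1 turned, Calb2 from 12.5 to 13.5 dpc, at -0.43 in WT alone. Calb2 and Pdzrn4 also lost that call with array weights. Leaving out dim genes removed Slitrk1, Insyn2b and Pdzrn4, which then have no value. The count of the 7 genes below 0 ran from 6 to 7 over the stages.

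Over all genes, 37 passed in KO minus WT over the stages. The count was 24 with the mean of probe sets, 19 with every probe set, 24 without dim genes, and 6 to 434 without single arrays. At 11.5 dpc, 3 passed, 14 with array weights, 7 without both KO arrays that stood apart, and 0 to 5 without single arrays. At 12.5 dpc, 7 passed, 4 with the mean of probe sets, 2 with weights, 4 after renormalisation, 94 without both KO arrays, 1 with the arrays of that stage alone, and 1 to 515 without single arrays. At 13.5 dpc, 5 passed, 2 without dim genes, 14 with a trend and robust prior, 11 without both KO arrays, 11 with the arrays of that stage alone, and 0 to 56 without single arrays. For the stage changes, 6046 passed from 11.5 to 12.5 dpc, 11531 with every probe set and 878 in KO alone, and 6992 passed from 12.5 to 13.5 dpc, 12744 with every probe set and 1035 in KO alone. The causes were not tested.

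With a replicate block by number, which the check above gives no ground for, the counts in KO minus WT were 6 for all stages, then 0, 1 and 0 by stage. Slitrk5 lost its call (limma adjusted p = 0.135), and from 11.5 to 12.5 dpc Slitrk1 (adjusted p = 0.0209) and Kcnab1 (adjusted p = 0.0147) gained one.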
